A study of Homo sapiens with 20 samples.

Results

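The genes described here are 56 genes of the mitotic spindle, the kinetochore and cytokinesis, measured by RNA-seq in NGP, a human neuroblastoma cell line. They were chosen by name, and all 56 were among the 27697 genes tested. The NGP cells were grown in 6-well format and received either nutlin-3, as a racemic mixture at 8 µM, or ethanol, the vehicle, with 10 samples per condition. The treatment time was not given in the sources used here, and all samples share 1 cell line, so that the p-values measure the spread between cultures or preparations of that line. Poly(A)+ RNA was sequenced, and each sample held between 14455477 and 19532971 estimated counts.

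Nutlin-3 blocks the binding of MDM2 to p53 and thereby lets p53 accumulate in cells that carry it in a functional form. Active p53 induces CDKN1A, whose protein p21 inhibits cyclin-dependent kinases, and many genes of mitosis are repressed after p53 activation through the DREAM complex, which binds CHR motifs near their start sites. In mitosis, kinetochores assembled on the CENP-A chromatin of each centromere hold the microtubules of the spindle, a checkpoint delays anaphase until all kinetochores are attached, and the cell is then divided by the central spindle and the contractile ring. The genes for these parts are transcribed mostly in G2 and M phase, so their level in a culture follows the share of cycling cells. In bulk RNA, fewer cells in these phases and less RNA per cell cannot be told apart.

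As a check of the treatment, the p53 targets MDM2 and CDKN1A were examined first. MDM2 was at 199 to 290.3 CPM in vehicle samples (median 249.99) and 4797 to 6005 CPM in nutlin samples (median 5659) (LFC 4.51, SE 0.07, adjusted p = 5.61e-29). CDKN1A was at 18.8 to 54.9 CPM in vehicle samples (median 35.4) and 1318 to 1833 CPM in nutlin samples (median 1704) (LFC 5.68, SE 0.14, adjusted p = 3.85e-24). The groups did not overlap for either gene. Here CPM is the gene count scaled to library size after TMM normalization, LFC is the log2 fold change of nutlin over vehicle, and adjusted p is the Benjamini-Hochberg value of the edgeR quasi-likelihood F-test over all genes tested. Of 9 adrenergic neuroblastoma markers, 9 had a mean of at least 10 TPM, led by MYCN at 1412 TPM. The summed TPM of 5 leukocyte markers was 0.389 to 1.902 in vehicle and 4.09 to 8.54 in nutlin samples, and that of 4 endothelial or epithelial markers was 0.823 to 2.01 and 4.43 to 8.23. For 6 mesenchymal or fibroblast markers the sums were 11.5 to 15.7 and 13.9 to 21.9, and for 4 Schwann cell markers 0.928 to 2.25 and 0.675 to 1.93. Of these other markers, CD3E was at 0 in every sample. The leukocyte markers CD68 and ITGAM and the epithelial marker KRT19 were higher in every nutlin than in every vehicle sample (LFC 2.29, 7.05 and 2.29). Among the mesenchymal markers, COL1A1 was likewise higher and PDGFRB lower in every nutlin sample (LFC 1.98 and -0.95). The part of other cell types in the results was not tested.

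All 56 mitotic genes were SDE (significantly differentially expressed) at 5% FDR and lower after nutlin, where 26.5% of all genes tested were lower. Among genes with a mean of 10 CPM or more, which include all 56, 57.6% were lower. In all 56 genes every nutlin sample was below every vehicle sample. Such a separation was seen in 16.6% of all genes tested, but in 4077 of the 9880 that reached 10 CPM on average. The LFC ran from -3.26 for CENPA to -0.51 for MIS12 with a median of -2.44, a 5.42-fold lower level, and the SE was between 0.039 and 0.11. The median LFC was 0.19 over all genes tested and -0.22 over those of at least 10 CPM. An SDE call with an LFC of -2 or below was found for 45 of the 56 genes (80.4%) and for 1.19% of all genes tested. Ordered by LFC, the 100 strongest falls among the 9880 genes of at least 10 CPM included 28 of the 56, and the strongest 500 included 54. The exceptions were BUB3 at rank 526 and MIS12 at rank 2833.

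Together, the 56 genes took 0.867 to 1.098% of the counts assigned to genes in the vehicle samples and 0.172 to 0.228% in the nutlin samples. In TPM, which also takes transcript length into account, their summed level was 4899 ± 298 TPM in vehicle and 945 ± 79.2 TPM in nutlin samples (SD, n = 10 per group), so that 19.3% of the vehicle level was left. Reads remained in every nutlin sample, and the lowest value of any of the 56 genes in any sample was 65.9 estimated counts, for CDC25C. The plot of levels by sample shows the gap between the groups for each gene.

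**Figure D1:**
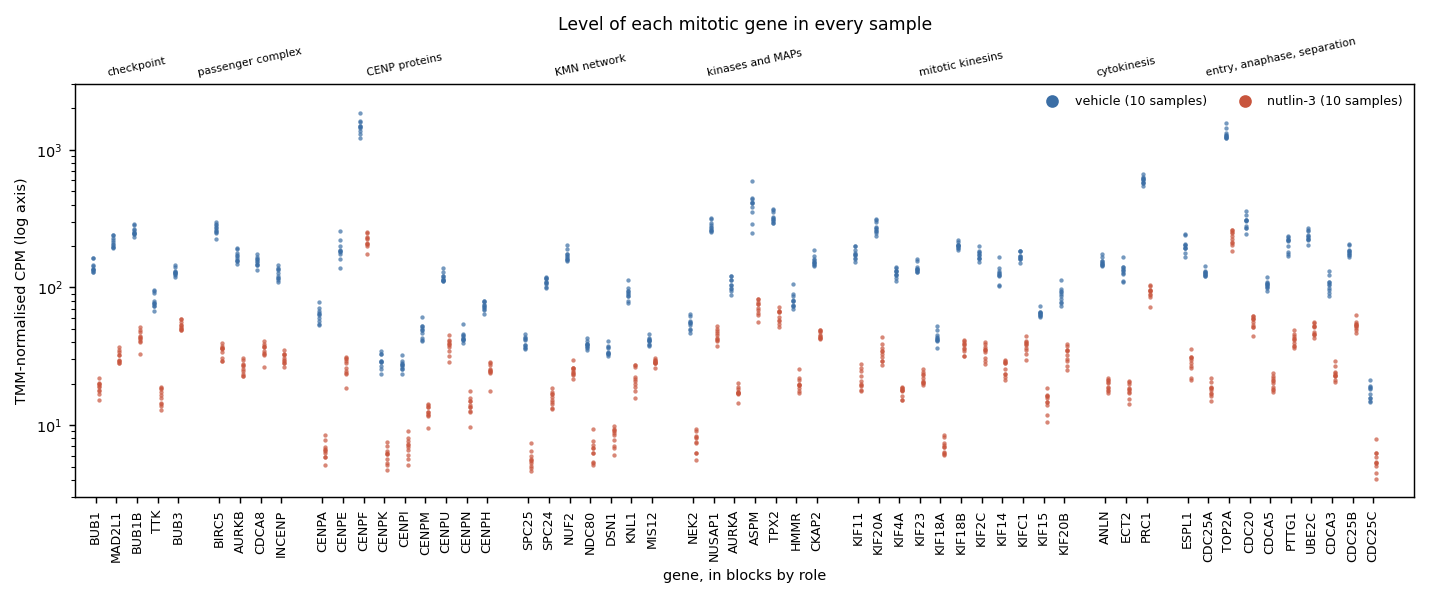
TMM-normalised CPM (log axis) of the 56 mitotic genes in each of 10 vehicle and 10 nutlin-3 samples, in blocks by role and ordered by LFC within a block. Each point is 1 sample, and the 2 colours do not overlap for any gene, with the narrowest gap for MIS12 (30.6 CPM in the highest nutlin and 37.4 CPM in the lowest vehicle sample).

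The start regions of these genes were read from the RefSeq promoter table (GRCh38.p14), which held 57 promoters of 47 of the 56 genes. BUB3, TTK, BIRC5, CENPH, CENPM, KNL1, AURKA, TPX2 and UBE2C were not matched. The windows run from 250 bases before to 50 bases after the annotated start. The motifs searched on both strands were the CHR as TTTGAA or TTCGAA, the box CCAAT, and an E2F site as TTTGGCGC, TTTCCCGC, TTTCGCGC or TTTGCCGC. Below, 100 bases before to 20 bases after the start are printed in the direction of transcription, with motif matches on either strand in capitals. CENPA, KIF11, KIF4A and ANLN are shown as genes with large falls and a CHR match. PRC1, NDC80, CDC20 and CDCA5 are shown for their motif arrangements, and MIS12 as the gene with the smallest fall. KIF20A, which fell more than ANLN and KIF4A and has no CHR match, is not printed.
CENPA, chr2:26785956-26786075, strand plus: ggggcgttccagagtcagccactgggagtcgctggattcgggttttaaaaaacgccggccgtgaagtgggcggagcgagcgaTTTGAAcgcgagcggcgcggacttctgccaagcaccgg
KIF11, chr10:92593030-92593149, strand plus: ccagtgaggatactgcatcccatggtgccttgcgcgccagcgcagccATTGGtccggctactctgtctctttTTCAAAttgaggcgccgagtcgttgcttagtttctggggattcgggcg
KIF4A, chrX:70290004-70290123, strand plus: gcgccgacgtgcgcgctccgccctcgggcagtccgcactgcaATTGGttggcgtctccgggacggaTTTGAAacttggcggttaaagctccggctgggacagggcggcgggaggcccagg
PRC1, chr15:90994516-90994635, strand minus: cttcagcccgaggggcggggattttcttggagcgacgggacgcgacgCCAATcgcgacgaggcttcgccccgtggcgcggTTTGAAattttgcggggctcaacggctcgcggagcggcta
ANLN, chr7:36389762-36389881, strand plus: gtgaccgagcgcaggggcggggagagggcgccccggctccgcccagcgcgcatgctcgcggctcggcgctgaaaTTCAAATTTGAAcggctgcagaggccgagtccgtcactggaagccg
NDC80, chr18:2571457-2571576, strand plus: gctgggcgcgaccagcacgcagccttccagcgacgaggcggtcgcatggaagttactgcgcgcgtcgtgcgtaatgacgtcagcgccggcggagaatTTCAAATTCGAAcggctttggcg
CDC20, chr1:43358881-43359000, strand plus: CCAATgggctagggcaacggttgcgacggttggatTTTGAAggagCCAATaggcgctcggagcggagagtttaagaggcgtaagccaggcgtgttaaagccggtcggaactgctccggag
CDCA5, chr11:65084021-65084140, strand minus: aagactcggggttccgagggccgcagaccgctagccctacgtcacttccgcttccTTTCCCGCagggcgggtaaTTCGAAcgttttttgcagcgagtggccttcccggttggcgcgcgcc
MIS12, chr17:5486274-5486393, strand plus: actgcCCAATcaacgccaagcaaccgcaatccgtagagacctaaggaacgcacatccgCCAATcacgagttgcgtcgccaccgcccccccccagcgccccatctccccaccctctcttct

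In CENPA the CHR began 18 bases before the start, in KIF11 it lay on the opposite strand at -28, and in KIF4A and PRC1 it stood at -34 and -20 with a CCAAT box at -58 and -53. ANLN and NDC80 each held 2 CHR matches side by side, 6 bases apart, an arrangement also seen in HMMR and KIF20B and in 0.0541% of all promoters. In CDC20 a CHR at -65 stood between 2 CCAAT boxes, and in CDCA5 an E2F match at -45 preceded a CHR at -26. The MIS12 window held 2 CCAAT boxes, an E2F match at -109 and no CHR match, and a second MIS12 promoter, with a start further downstream, held 3 CCAAT boxes, an E2F match and no CHR match. Over the 300-base windows, a CHR match was present in 35 of the 57 promoters (61.4%), against 16.4% of all 35116 promoters and 12.8% of those of protein-coding genes tested. CCAAT was in 71.9% of the 57 promoters, 34.6% of all and 34.4% of those of protein-coding genes tested. The E2F sites were in 14.04%, 3.31% and 4.3%, and the promoters of the 57 that held one belong to 7 genes. CHR and CCAAT were found together in 28 of the 57 promoters, which belong to 27 genes. This is 49.1% of the 57 promoters and 6.38% of all. Promoters of CENPE, CENPI, CKAP2, DSN1 and KIF2C had none of the motifs in this window. The median LFC was -2.53 for the 33 genes with a CHR match and -2.32 for the 14 without one. Between 40 bases before and 20 bases after the start, in contrast, it was -2.49 for the 24 genes with a match and -2.51 for the 23 without. KIF20A and NEK2, with LFC -3.02 and -2.85, had CCAAT but no CHR match in the 300-base windows, and KIF20B, with -1.44, had 2 CHR matches. These matches are descriptions of letters in the windows, and binding was not measured.

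**Figure D2:**
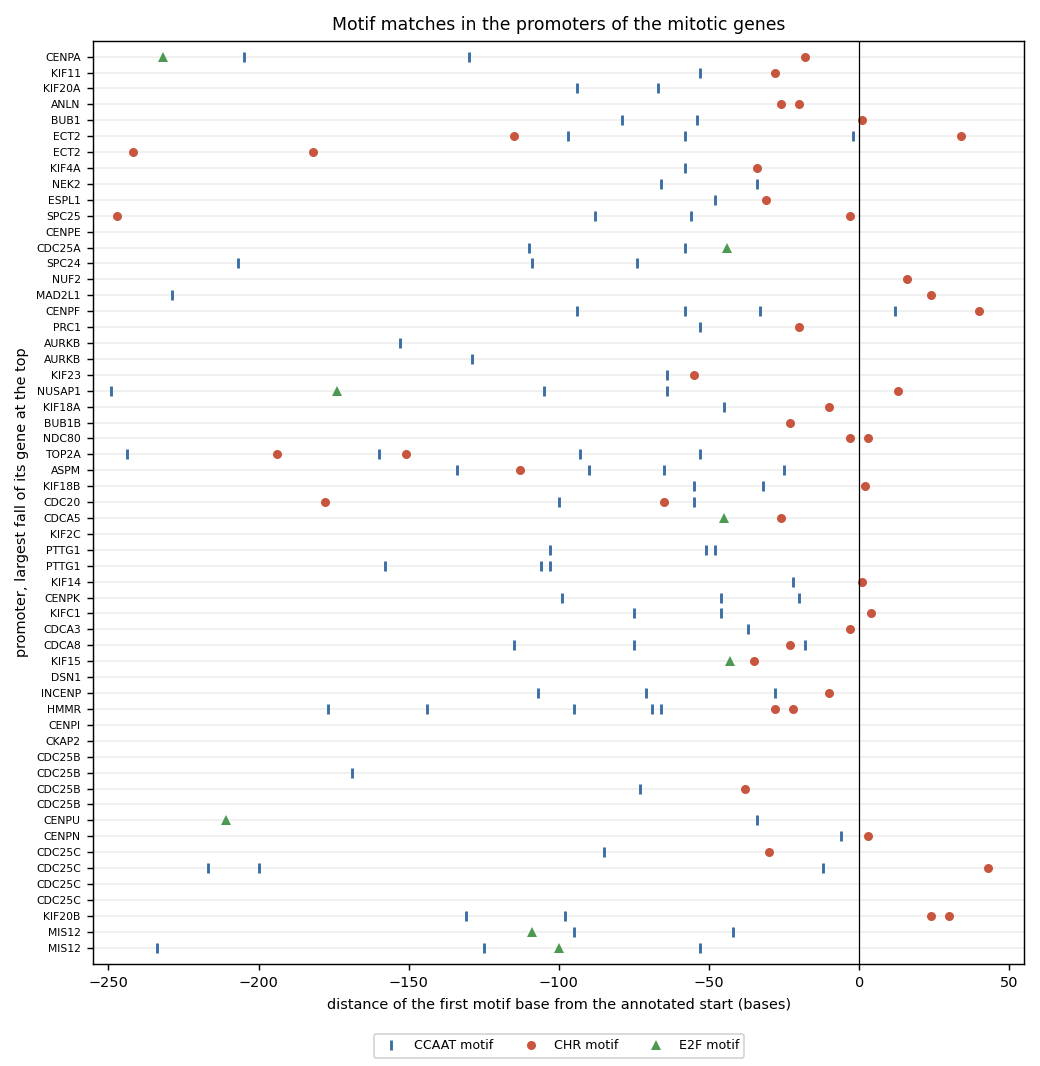
Position of each CHR, CCAAT and E2F match (first base, in bases from the annotated start) in 57 promoters of 47 mitotic genes, with the largest fall at the top. CHR matches crowd around the start (24 of 57 promoters have one between 40 bases before and 20 bases after it, or 42.1% against 3.08% of all promoters), and CCAAT boxes lie mostly upstream of them.

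The 5 genes of the spindle assembly checkpoint, which holds back anaphase until chromosomes are attached, were lower with a median LFC of -2.56. BUB1 (chr2:110637528-110678063), the kinase that recruits checkpoint proteins to kinetochores, was at 129 to 163 CPM in vehicle samples (median 135) and 15.1 to 22.03 CPM in nutlin samples (median 19.1) (LFC -2.91, SE 0.058, adjusted p = 1.07e-26). BUB3 (chr10:123154402-123170467), the WD-repeat protein that carries BUB1 and BUBR1 to the kinetochore, was at 120.01 to 145 CPM in vehicle samples (median 128) and 48.96 to 59.2 CPM in nutlin samples (median 52.6) (LFC -1.29, SE 0.042, adjusted p = 1.47e-21). The nutlin samples were below the vehicle samples for both genes, and the fall was 7.51-fold for BUB1 and 2.44-fold for BUB3. MAD2L1 (chr4:120055623-120066858), which encodes the MAD2 protein that sequesters CDC20, was the checkpoint gene with the highest vehicle level per length (TPM) and was at 194 to 242 CPM in vehicle samples (median 210.5) and 28.3 to 37.03 CPM in nutlin samples (median 31.1) (LFC -2.76, SE 0.054, adjusted p = 8.92e-27). BUB1B, which encodes BUBR1, and TTK, the MPS1 kinase, had LFC -2.56 and -2.32.

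The order of the checkpoint transcripts per length differed between the conditions. In vehicle samples MAD2L1 came first (145 ± 17.3 TPM in vehicle and 21.4 ± 2.72 TPM in nutlin samples), and BUB3 was below it in all 10 samples (87.1 ± 5.54 TPM in vehicle and 35.8 ± 3.01 TPM in nutlin samples). In nutlin samples BUB3 was above MAD2L1 in all 10 samples, with ranges that did not overlap. The TPM ratio of BUB3 to BUB1 ran from 1.39 to 1.75 in vehicle samples (median 1.62) and from 4.35 to 5.92 in nutlin samples (median 4.93). The ratio was higher by 1.62 on the log2 scale (95% interval 1.51 to 1.74, permutation p = 6e-05, 0.000108 after adjustment). This is 1 of 9 such ratios of partner genes, each compared by a two-sided permutation test with 100000 resamples and adjusted over the 9 pairs. BUB3, INCENP, CENPH, MIS12 and KIF20B, which stand first in their ratios, are each the gene with the smallest fall of their role. Their higher ratios thus restate the differences in LFC and are no separate evidence. BUB1B was above BUB3 in 8 of 10 vehicle samples, with overlapping ranges, and above BUB1 in all 10 samples of both conditions. BUB1 and TTK did not overlap in vehicle samples, but their ranges overlapped in nutlin samples, with BUB1 higher in 6 of 10.

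The 4 genes of the chromosomal passenger complex, which corrects faulty attachments and later works at the midbody, were lower with a median LFC of -2.41. BIRC5 (chr17:78214186-78225636), also known as survivin and the subunit that reads phosphorylated histone H3, was at 226 to 297 CPM in vehicle samples (median 265) and 29.2 to 39.5 CPM in nutlin samples (median 35.8) (LFC -2.95, SE 0.056, adjusted p = 4.97e-27). INCENP (chr11:62123998-62153169), the scaffold of the complex, was at 110.3 to 146 CPM in vehicle samples (median 124) and 26.4 to 35.2 CPM in nutlin samples (median 30.2) (LFC -2.04, SE 0.055, adjusted p = 1.45e-23). Its fall was the smallest of the 4, but no nutlin sample reached the lowest vehicle sample. AURKB (chr17:8204733-8210600), the kinase subunit, had the highest vehicle level of the 4 per length (TPM) and was at 149 to 194 CPM in vehicle samples (median 167) and 22.6 to 30.9 CPM in nutlin samples (median 26.2) (LFC -2.69, SE 0.059, adjusted p = 1.28e-25). CDCA8, which encodes borealin, had LFC -2.13.

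Per length, AURKB was at 195 ± 12.5 TPM in vehicle and 30.7 ± 3.83 TPM in nutlin samples, followed by BIRC5 at 131 ± 8.64 TPM in vehicle and 19.4 ± 2.61 TPM in nutlin samples. AURKB was above BIRC5 in all 10 samples of both conditions, whereas INCENP and CDCA8 had overlapping ranges in both and each was the higher in 5 of 10 samples. The ratio of INCENP to AURKB ran from 0.307 to 0.419 in vehicle samples (median 0.361) and from 0.439 to 0.665 in nutlin samples (median 0.505). It was higher after nutlin by 0.498 on the log2 scale (95% interval 0.35 to 0.65, permutation p = 6e-05, 0.000108 after adjustment), and the groups did not overlap. The scaffold transcript was thus lower than that of the kinase in every sample of both conditions.

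**Figure D3:**
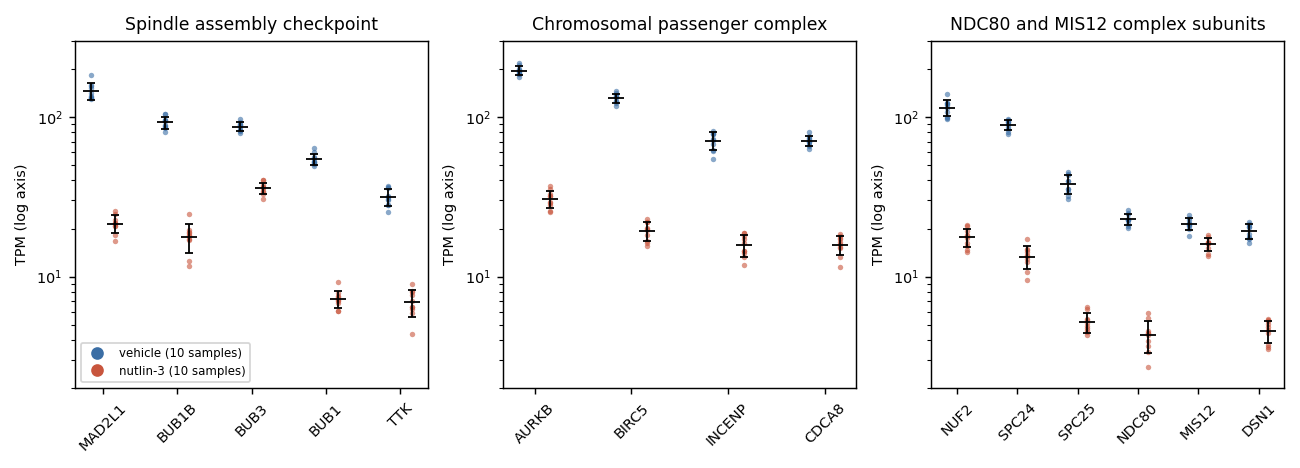
TPM (log axis) of the checkpoint genes, the passenger complex genes and 6 genes of the NDC80 and MIS12 complexes, with 1 point per sample, and the mean and SD of 10 samples per condition in black. BUB3 and MIS12 show the smallest distance between the conditions (2.44-fold and 1.42-fold by LFC), and after nutlin they lie above partners that they matched or trailed in vehicle samples.

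The 9 genes for centromere and corona CENP proteins were lower with a median LFC of -1.97, the smallest median fall of the roles. CENPA (chr2:26764289-26801067), the histone H3 variant that marks the centromere, was at 53.4 to 79.002 CPM in vehicle samples (median 63.2) and 5.15 to 8.41 CPM in nutlin samples (median 6.53) (LFC -3.26, SE 0.077, adjusted p = 6.69e-25). This 9.61-fold fall was the largest of the 56 genes and the sixth strongest among genes of at least 10 CPM. CENPH (chr5:69189574-69210357), of the inner kinetochore network that assembles on CENP-A, was at 64.5 to 79.8 CPM in vehicle samples (median 72.99) and 17.7 to 28.9 CPM in nutlin samples (median 24.9) (LFC -1.55, SE 0.059, adjusted p = 6.44e-20). The lowest nutlin value of CENPH came from replicate 4 and stood apart from the other 9. CENPF (chr1:214603185-214664574), a large corona protein, was the most abundant of the 9 per length (TPM) and was at 1214 to 1840.1 CPM in vehicle samples (median 1474) and 176 to 252 CPM in nutlin samples (median 217) (LFC -2.76, SE 0.067, adjusted p = 1.31e-24).

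The range within this role was wide. The inner kinetochore genes CENPN, CENPU, CENPM, CENPI and CENPK had LFC -1.65, -1.67, -1.96, -1.97 and -2.27. CENPE, the corona kinesin that moves chromosomes to the spindle equator, had LFC -2.83. All 6 of the inner network genes, CENPH included, fell less than CENPA, CENPE and CENPF. The TPM ratio of CENPH to CENPA ran from 0.823 to 1.25 in vehicle samples (median 1.03) and from 1.89 to 4.76 in nutlin samples (median 3.37). The ratio was higher after nutlin by 1.77 on the log2 scale (95% interval 1.48 to 2.05, permutation p = 6e-05, 0.000108 after adjustment), with no overlap between the groups.

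The 7 genes of the KNL1-MIS12-NDC80 network, the outer kinetochore module that binds microtubules, were lower with a median LFC of -2.53. SPC25 (chr2:168834132-168913371), of the end of the NDC80 complex that faces the chromosome, was at 35.8 to 45.7 CPM in vehicle samples (median 39.9) and 4.64 to 7.36 CPM in nutlin samples (median 5.55) (LFC -2.83, SE 0.068, adjusted p = 9.36e-25). MIS12 (chr17:5486285-5490814), of the complex that links the NDC80 complex to the centromere, was at 37.4 to 45.6 CPM in vehicle samples (median 40.98) and 25.98 to 30.6 CPM in nutlin samples (median 28.8) (LFC -0.51, SE 0.039, adjusted p = 1.95e-12). Its 1.42-fold fall was the smallest of the 56 genes and stood well apart from the next, BUB3. NUF2 (chr1:163266576-163355764), the partner of NDC80 at the microtubule-binding end, had the highest vehicle level of the role per length (TPM) and was at 155 to 203 CPM in vehicle samples (median 168) and 21.7 to 29.7 CPM in nutlin samples (median 24.8) (LFC -2.78, SE 0.054, adjusted p = 6.47e-27). SPC24 and NDC80 had LFC -2.81 and -2.53, and DSN1 and KNL1 -2.08 and -2.06.

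MIS12 and DSN1 are subunits of the same complex. Their TPM ratio ran from 0.951 to 1.23 in vehicle samples (median 1.14) and from 2.99 to 4.56 in nutlin samples (median 3.37), and was higher after nutlin by 1.65 on the log2 scale (95% interval 1.504 to 1.804, permutation p = 6e-05, 0.000108 after adjustment). The level of MIS12 was 21.4 ± 1.74 TPM in vehicle and 15.97 ± 1.47 TPM in nutlin samples, and that of DSN1 was 19.2 ± 2.02 TPM in vehicle and 4.57 ± 0.725 TPM in nutlin samples. In the NDC80 complex, in contrast, the 4 subunits kept the order NUF2, SPC24, SPC25 and NDC80 by mean TPM in both conditions. NUF2 was above SPC24, and SPC24 above SPC25, in all 10 samples of each, but SPC25 was above NDC80 in 8 of 10 nutlin samples with overlapping ranges. The ratio of NUF2 to NDC80 ran from 4.42 to 5.44 in vehicle samples (median 5.03) and from 2.95 to 5.45 in nutlin samples (median 4.298) and differed by -0.26 on the log2 scale (95% interval -0.46 to -0.048, permutation p = 0.0141, 0.0212 after adjustment), with overlapping groups. With the replicate block this difference was -0.18 and no longer passed 5%. For SPC24 and SPC25 the ratio ran from 1.805 to 3.07 in vehicle samples (median 2.35) and from 2.08 to 3.22 in nutlin samples (median 2.55), and the difference was 0.12 on the log2 scale (95% interval -0.093 to 0.33, permutation p = 0.254, 0.326 after adjustment).

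The 7 spindle kinases and microtubule-associated proteins were lower with a median LFC of -2.48. NEK2 (chr1:211658657-211675630), the centrosomal kinase that promotes centrosome separation, was at 46.4 to 64.1 CPM in vehicle samples (median 55.4) and 5.58 to 9.39 CPM in nutlin samples (median 7.82) (LFC -2.85, SE 0.076, adjusted p = 1.16e-23). CKAP2 (chr13:52455429-52476628), a microtubule-stabilising protein, was at 143 to 188 CPM in vehicle samples (median 153) and 42.1 to 49.2 CPM in nutlin samples (median 44.7) (LFC -1.79, SE 0.046, adjusted p = 4.65e-24). The nutlin samples of CKAP2 were close together, with a coefficient of variation (CV) of 6.104%. NUSAP1 (chr15:41320794-41381050), which bundles microtubules near chromosomes, had the highest vehicle level of the role per length (TPM) and was at 255 to 318 CPM in vehicle samples (median 271) and 37.7 to 52.2 CPM in nutlin samples (median 43.9) (LFC -2.64, SE 0.055, adjusted p = 4e-26). A read-through gene on the same strand covers 81.4% of the exon bases of NUSAP1. AURKA, the kinase of spindle poles, and TPX2, its activator, had LFC -2.59 and -2.39. HMMR and ASPM, both at spindle poles, had LFC -2.02 and -2.48.

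The 11 mitotic kinesins were lower with a median LFC of -2.45, and 10 of them had an LFC of -2 or below. KIF11 (chr10:92574105-92655395), the kinesin that pushes the spindle poles apart, was at 154 to 201 CPM in vehicle samples (median 173) and 17.7 to 27.98 CPM in nutlin samples (median 20.3) (LFC -3.03, SE 0.072, adjusted p = 6.33e-25). KIF20A (chr5:138178719-138187723), which brings the passenger complex to the central spindle, had the highest vehicle level of the role per length (TPM) and was at 235 to 316 CPM in vehicle samples (median 267) and 27.4 to 43.6 CPM in nutlin samples (median 33.6) (LFC -3.02, SE 0.07, adjusted p = 3.77e-25). KIF20B (chr10:89701590-89774939), a related kinesin of late cytokinesis, was at 73.01 to 113 CPM in vehicle samples (median 87.9) and 25.2 to 38.7 CPM in nutlin samples (median 33.4) (LFC -1.44, SE 0.075, adjusted p = 1.61e-16). The other 8 had LFC between -2.87 for KIF4A, which shortens the central spindle, and -2.12 for KIF15, which can share the work of KIF11.

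The ratio of KIF20B to KIF20A ran from 0.125 to 0.181 in vehicle samples (median 0.149) and from 0.244 to 0.748 in nutlin samples (median 0.447). It was higher after nutlin by 1.59 on the log2 scale (95% interval 1.27 to 1.92, permutation p = 6e-05, 0.000108 after adjustment), with no overlap. KIF20A was still the higher of the pair in every nutlin sample. For KIF18A and KIF18B, which dampen microtubule dynamics, the ratio ran from 0.1505 to 0.235 in vehicle samples (median 0.1803) and from 0.1404 to 0.218 in nutlin samples (median 0.204), and the difference was 0.054 on the log2 scale (95% interval -0.13 to 0.24, permutation p = 0.551, 0.62 after adjustment).

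The 3 cytokinesis genes had the largest median fall of the roles, at LFC -2.87, and 15.7% of their summed vehicle TPM was left. ANLN (chr7:36389821-36453791), the anillin scaffold of the contractile ring, was at 143 to 176 CPM in vehicle samples (median 151) and 17.2 to 21.8 CPM in nutlin samples (median 19.6) (LFC -2.98, SE 0.048, adjusted p = 1.41e-28). PRC1 (chr15:90966040-90995629), which crosslinks the microtubules of the central spindle, had both the smallest fall and the highest level per length of the 3 and was at 545 to 667 CPM in vehicle samples (median 609) and 71.6 to 104 CPM in nutlin samples (median 94.3) (LFC -2.72, SE 0.052, adjusted p = 4.97e-27). ECT2, the exchange factor that activates RhoA at the cell equator, had LFC -2.87. Other genes cover part of the exons of PRC1, namely PRC1-AS1 on the opposite strand with 34.3% of its exon bases (LFC -0.17) and a read-through gene on the same strand with 57.6%. Of the 56 genes, 17 share some exon bases with another gene, and only NUSAP1 and PRC1 share 20% or more. The strand setting of the quantification was not given in the sources used here.

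The 10 genes of mitotic entry, anaphase and chromatid separation held 1521 ± 92.3 TPM in vehicle and 296 ± 23.98 TPM in nutlin samples, with a median LFC of -2.34. ESPL1 (chr12:53268299-53293638), the separase that cleaves cohesin, was at 166 to 243 CPM in vehicle samples (median 198) and 21.2 to 35.8 CPM in nutlin samples (median 28.9) (LFC -2.84, SE 0.079, adjusted p = 2.8e-23). CDC25C (chr5:138285269-138338355), a phosphatase that activates CDK1, had the lowest level per length of the 56 genes in vehicle samples and was at 14.6 to 21.3 CPM in vehicle samples (median 17.6) and 4.08 to 7.88 CPM in nutlin samples (median 5.37) (LFC -1.64, SE 0.091, adjusted p = 7.51e-16). UBE2C (chr20:45812576-45816957), the ubiquitin-conjugating enzyme of the APC/C, had the highest level per length of the 56 and was at 204 to 272 CPM in vehicle samples (median 234) and 43.2 to 55.9 CPM in nutlin samples (median 49.7) (LFC -2.26, SE 0.054, adjusted p = 6.69e-25). Per length UBE2C was at 368 ± 24.7 TPM in vehicle and 76.2 ± 6.21 TPM in nutlin samples, next to PTTG1, the securin that inhibits separase, at 350.2 ± 25.2 TPM in vehicle and 68.6 ± 6.03 TPM in nutlin samples. These 2 did not differ beyond their spread in vehicle samples, where UBE2C was higher in 6 of 10.

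Of the 3 CDC25 phosphatases, CDC25A had LFC -2.81, CDC25B -1.78 and CDC25C -1.64. The ratio of CDC25B to CDC25C ran from 5.54 to 7.34 in vehicle samples (median 6.59) and from 3.99 to 8.31 in nutlin samples (median 6.67), and the difference was -0.028 on the log2 scale (95% interval -0.24 to 0.19, permutation p = 0.811, 0.811 after adjustment). CDC20, the APC/C activator, had LFC -2.42, and TOP2A, the topoisomerase that untangles sister chromatids, -2.51. CDCA5, which encodes the cohesin protector sororin, and CDCA3 had -2.36 and -2.15. Copies of some genes elsewhere in the genome took fewer counts than the genes themselves. The pseudogene CDC20P1 had a mean of 17.7 estimated counts in vehicle and 3.33 in nutlin samples. UBE2CP5 had 59.4 and 73.4, against UBE2C itself at 3600 and 773. AURKAP1 had 29.1 and 44.4, against AURKA itself at 1599 and 273.

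Other genes of mitosis were counted in 5 lists. Of 26 further kinetochore and centromere genes, 24 were lower, 1 was higher and 1 was not SDE, with a median LFC of -1.63. The largest fall in this list was that of SGO2, the shugoshin that protects centromeric cohesin, at 55.5 to 94.7 CPM in vehicle samples (median 71.01) and 8.77 to 13.1 CPM in nutlin samples (median 11.3) (LFC -2.68, SE 0.091, adjusted p = 4.26e-21). CENPP, of the inner kinetochore network, was higher at 31.8 to 37.3 CPM in vehicle samples (median 34.4) and 36.4 to 40.1 CPM in nutlin samples (median 38.7) (LFC 0.17, SE 0.035, adjusted p = 0.000138), with overlapping groups. MAD1L1, which anchors MAD2 at kinetochores, was not SDE (LFC 0.061, SE 0.047, adjusted p = 0.284). Of 18 condensin and cohesin genes, 16 were lower, 1 was higher and 1 was not SDE, with a median LFC of -1.21. NCAPH, of condensin I, had the largest fall (LFC -2.63, SE 0.054, adjusted p = 2.52e-26), the cohesin loader subunit MAU2 was higher (LFC 0.16, SE 0.033, adjusted p = 0.000121), and its partner NIPBL was not SDE (LFC -0.0047, SE 0.043, adjusted p = 0.946).

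The remaining lists fell less. Of 17 APC/C subunits and regulators, 16 were lower and 1 was not SDE, with a median LFC of -0.498. The APC/C inhibitor FBXO5 (EMI1) had the largest fall (LFC -2.07, SE 0.052, adjusted p = 2.91e-24), and ANAPC16 was the 1 that was not SDE (LFC -0.099, SE 0.049, adjusted p = 0.0862). Of 20 genes of the gamma-tubulin ring, augmin and the spindle poles, 19 were lower and 1 was higher, with a median LFC of -0.86. TACC3, which stabilises spindle microtubules with a clathrin complex, fell the most (LFC -2.31, SE 0.05, adjusted p = 1.04e-25), and TUBGCP6 was the 1 gene that was higher (LFC 0.38, SE 0.044, adjusted p = 9.66e-09). Of 18 mitotic exit phosphatase genes and their control, 16 were lower and 2 were not SDE, with a median LFC of -0.49. MASTL, the Greatwall kinase that restrains PP2A-B55 in mitosis, fell the most (LFC -1.899, SE 0.055, adjusted p = 1.04e-22). PPP2R2D and PPP2R5A were not SDE (LFC -0.028, SE 0.043, adjusted p = 0.599, and LFC -0.15, SE 0.104, adjusted p = 0.229). An LFC of -2 or below was found for 8, 4, 1, 1 and 0 genes of the 5 lists in this order, against 45 of the 56 genes described here. The 56 genes and the lists were chosen with earlier results of these data known, so this contrast is a description and no test.

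**Figure D4:**
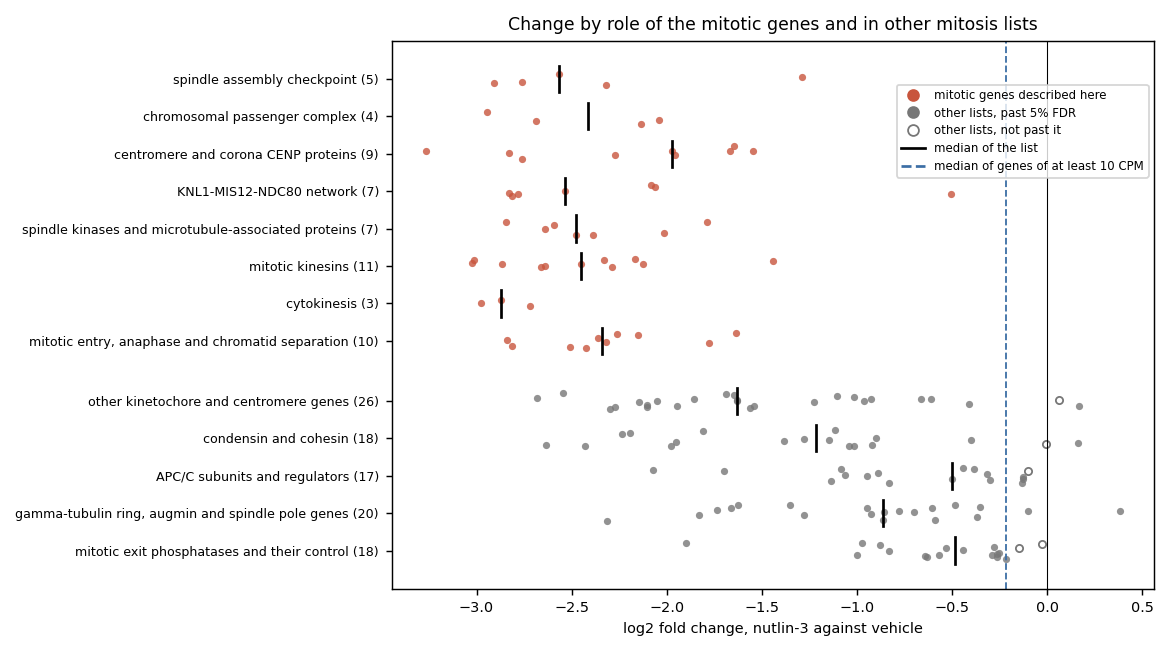
LFC of nutlin-3 against vehicle (x axis) for the 56 mitotic genes by role and for 5 other mitosis lists, with the number of genes in parentheses. Black bars are list medians, and the dashed line is the median of the 9880 genes of at least 10 CPM (-0.22). The role medians lie between -2.87 and -1.97, and those of the other lists between -1.63 and -0.49.

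Within a condition, certain samples were the highest or the lowest for many of the 56 genes at once. This was not counted over all genes, so whether it is particular to these genes was not tested. Of the 10 vehicle samples, replicate 4 was the highest for 22 genes and replicate 7 for 20. Replicate 9 was the lowest for 18 genes and replicate 3 for 11. In the nutlin samples replicate 11 was the highest for 24 genes and replicate 9 the lowest for 26. The median gene was at 1.13 times its nutlin mean in replicate 11 and at 0.865 times in replicate 9, and at 1.11 and 0.938 times its vehicle mean in vehicle replicates 4 and 9. These shifts are small beside the 5.42-fold median difference between the conditions. The genes that were highest in vehicle replicate 4 had a median effective length of 2962 bases, those highest in replicate 7 of 2119 bases and the 8 highest in replicate 10 of 1226 bases.

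The CV of CPM had a median of 8.82% over the 56 genes in vehicle and of 11.5% in nutlin samples. It was highest in vehicle for ASPM, with 9334 bases the longest of the 56 by effective length, at 23.3%, and lowest for KIF18B at 4.77%. ASPM was at 249 to 589.8 CPM in vehicle samples (median 411) and 56.5 to 82.3 CPM in nutlin samples (median 73.1). In nutlin samples the CV was highest for NDC80 at 19.2% and lowest for MIS12 at 4.25%. Length also moved with the treatment over all genes of at least 10 CPM, whose median LFC was -0.35 for those up to 1000 bases and -0.046 for those above 4000. The 7 mitotic genes up to 1000 bases had a median LFC of -2.27 and the 10 above 4000 bases of -2.63. The part of length in the differences between genes was not tested beyond the fit with an effective length offset, in which all 56 genes were again lower.

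The files give values per transcript, so the use of transcripts within each gene could be compared. Of the 56 genes, 52 had 2 or more transcripts with enough counts, and 19 of them (36.5%) differed in transcript usage at 5% FDR, against 45.3% of the 10063 genes tested (F-test of diffSpliceDGE, adjusted over all of them). A share below the background is no result about these genes as a group. Summed over all 56, protein-coding transcripts made up 82.1 ± 0.761% of the TPM in vehicle and 81.4 ± 0.953% in nutlin samples. Transcripts with a retained intron made up 9.902 ± 0.906% and 9.202 ± 0.956% (SD, n = 10 per group). Both classes thus fell with the genes, and by a similar factor of 5.23 and 5.58 in mean TPM.

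Of 232 transcripts of the 56 genes tested singly, 18 differed in share (7.76%), against 8.68% of all 45871 transcripts tested. The shares of 5 of the 7 retained-intron transcripts among them were higher after nutlin, and those of 6 of the 8 protein-coding ones were lower. Of all transcripts that differed, 564 of 688 with a retained intron and 1458 of 2353 protein-coding ones were higher. Over all protein-coding genes tested, retained-intron transcripts made up 8.604% of the TPM in vehicle and 9.84% in nutlin samples. CENPH-203 (chr5:69207731-69209801, 2 exons), a retained-intron transcript, made up 4.43 to 7.28% of the gene's TPM in vehicle samples (median 5.801%) and 11.01 to 20.98% in nutlin samples (median 17.4%). The groups did not overlap, and its estimated counts were 24.96 to 41.2 in vehicle and 24.96 to 46.5 in nutlin samples. Its mean count was 32.5 and 36.1, while the protein-coding CENPH-201 went from a mean of 1037 to 336. CENPM-202 (chr22:41944921-41947151, 4 exons), also with a retained intron, made up 4.02 to 6.61% of the gene's TPM in vehicle samples (median 5.41%) and 9.17 to 19.8% in nutlin samples (median 13.04%). In KIF18A the retained-intron transcript KIF18A-204 (chr11:28076482-28097887, 10 exons) made up 2.99 to 10.5% of the gene's TPM in vehicle samples (median 5.18%) and 5.104 to 44.4% in nutlin samples (median 18.5%), with overlapping groups and a mean of 12.8 counts in nutlin samples. CENPF-204 went the other way, with 33.2 to 49.8% of the gene's TPM in vehicle samples (median 41.5%) and 22.8 to 37.3% in nutlin samples (median 28.5%). It is short, with 734 exon bases, and only 94 of them lie outside CENPF-201.

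Shares of protein-coding transcripts also differed in KIF14 and CDCA3. KIF14-202 (chr1:200551497-200618723, 29 exons) made up 8.86 to 39.6% of the TPM of KIF14 in vehicle samples (median 20.7%), with 158 to 522 estimated counts. It was listed at 0 after rounding in all 10 nutlin samples, where KIF14-201 took all counts of the gene, 344 to 448. Only 3 of the 6838 exon bases of KIF14-202 lie outside KIF14-201, so these estimates rest on few distinguishing reads. The same holds for KNL1-203 (chr15:40623132-40664339, 18 exons), annotated as a target of nonsense-mediated decay, which has no exon base outside KNL1-202 and can be told from it only at junctions. KNL1-203 made up 15.5 to 30.9% of the gene's TPM in vehicle samples (median 22.96%) and 0 to 15.1% in nutlin samples (median 4.81%).

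In CDCA3, which had the smallest adjusted p for usage of the 56 genes, CDCA3-201 (chr12:6848816-6851252, 6 exons) made up 15.4 to 24.3% of the gene's TPM in vehicle samples (median 21.6%) and 4.66 to 19.2% in nutlin samples (median 10.3%). Only 13 of the 1047 exon bases of CDCA3-201 lie outside CDCA3-204, so this share too rests on few distinguishing bases. CDCA3-202 (chr12:6844793-6851269, 5 exons), the longer form, made up 2.78 to 5.45% of the gene's TPM in vehicle samples (median 4.05%) and 7.55 to 18.9% in nutlin samples (median 12.1%). The groups did not overlap for CDCA3-202. CDCA3 shares 549 exon bases with GNB3 on the opposite strand, and GNB3 had LFC -0.43, so that the part of its reads in the share of CDCA3-202 was not tested.

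**Figure D5:**
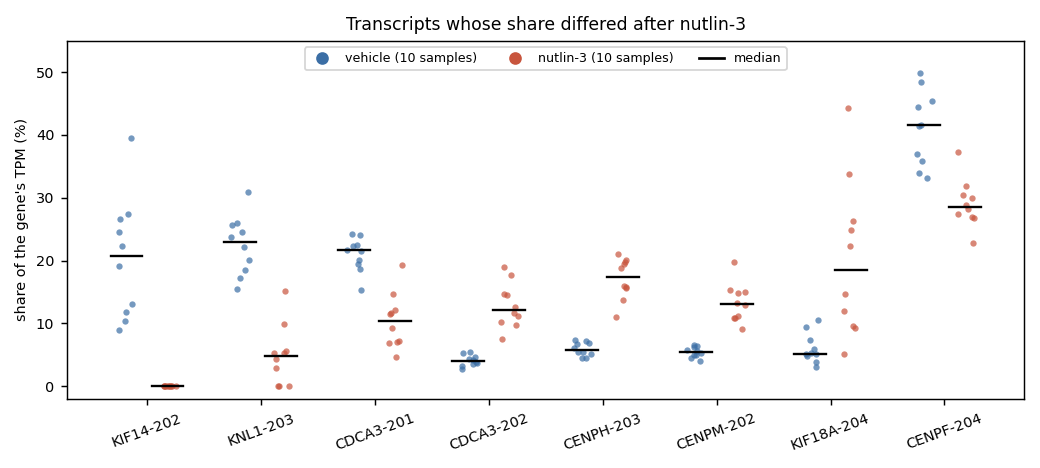
Share of a gene's TPM (y axis, %) taken by 8 transcripts of KIF14, KNL1, CDCA3, CENPH, CENPM, KIF18A and CENPF in each of 10 vehicle and 10 nutlin-3 samples, with the median as a black line. The shares of CDCA3-202, CENPH-203 and CENPM-202 are higher in every nutlin sample, and KIF14-202 is at 0 in all 10.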

How the data were processed

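RNA-seq of 10 vehicle and 10 nutlin-3 samples of NGP cells was analysed from the files of each sample. The authors quantified the reads with kallisto 0.42.4 on GRCh38 transcripts and deposited, per transcript, estimated counts (not normalized), TPM values (scaled by effective length and library size) and effective lengths in bases. Whether a strand option was used is not given in the sources used here.

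Of 198968 transcripts, 191106 (96.05%) were matched to GENCODE release 44 by identifier, and the rest were not used. Estimated counts were summed per gene and rounded. Protein-coding and lncRNA genes detected in both conditions (1 count or more in each, 27697 genes) were fitted with a condition term in edgeR 4.0.16 under R 4.3.3. Counts were normalized by TMM, the test was the quasi-likelihood F-test, and p-values were adjusted after Benjamini-Hochberg at 5% FDR. The SE is the absolute LFC divided by the square root of F. Transcript usage was tested with diffSpliceDGE after filterByExpr, and ratios of partner genes with a permutation test of SciPy on log2 TPM ratios, for which 2e-05 is the smallest p possible. Each permutation test used the same random draws, and all pairs without overlap gave 6e-05, so that this p does not rank them. limma 3.58.1 and DESeq2 1.42.0 served as alternatives, and the scripts were tested on simulated data.

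The mitotic genes and all lists were chosen with earlier results of these data known. Values were given in full for the genes with the largest and smallest absolute LFC and the highest vehicle TPM of each role, for the largest fall and rise of each other list, and for MDM2 and CDKN1A. No pair of samples held identical values. Intervals and counts cover no preparation error beyond the spread between samples.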

Additional observations from a re-analysis of the deposited data

Results flagged for a closer look

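Each of the 56 genes was examined in both conditions for a sample that stood apart from the other 9 by Dixon's criterion, which flags about 1 in 20 groups by chance. Of 112 groups, 5 had such a sample. CENPH was at 17.7 CPM in nutlin replicate 4, below the next lowest nutlin sample at 23.8 CPM. CENPN was at 54.3 CPM in vehicle replicate 10, above the next at 45.6 CPM, and CDC25A was at 144 CPM in the same sample, above the next at 131 CPM. KIF15 was at 72.9 CPM in vehicle replicate 4, above the next at 66.5 CPM. NUF2 was at 29.7 CPM in nutlin replicate 11, above the next at 25.9 CPM. In all 5 the sample remained on its own side of the gap between the conditions.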

How the results depend on the processing

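All 56 genes were lower after nutlin at 5% FDR in the fit described and under each of the 11 alternatives, which gave 616 values in the same direction and on the same side of the threshold. The median LFC of the 56 genes was -2.44, and between -2.45 and -2.25 under the alternatives. The latter value (-2.247) came with library size alone, which moved the median LFC of all genes from 0.19 to 0.37 and the calls from 8935 higher and 7340 lower to 11560 higher and 5514 lower. The effective length offset moved single LFC of the 56 genes by -0.48 to 0.22.

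For the other lists, the counts depended on the setting, and the cause was not tested. The number of APC/C genes lower after nutlin was 12 in place of 16 with library size alone, 13 with DESeq2 size factors in edgeR, filterByExpr, at least 1 count in every sample and the replicate block, and 14 with DESeq2, the effective length offset and the same 16 samples without the block. For the mitotic exit phosphatases it was 12 in place of 16 with library size alone and 14 with the effective length offset. For the gamma-tubulin list it was 18 in place of 19 under 7 of the alternatives, and the count of lower genes kept its value for the other kinetochore list and for condensin and cohesin under all 11. The number of genes higher also moved. For the other kinetochore and centromere genes it was 2 in place of 1 with DESeq2 size factors in edgeR, library size alone, DESeq2, filterByExpr, at least 1 count in every sample and the effective length offset. For condensin and cohesin, and for the gamma-tubulin list, it was 2 in place of 1 with library size alone. For the mitotic exit phosphatases it was 1 in place of 0 with library size alone and with the effective length offset.

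The Simes test in place of the F-test called transcript usage different in 12 of the 52 genes tested in place of 19. Over all 10063 genes tested it called 2215 in place of 4560. The ratio of KIF18A to KIF18B differed by -0.18 with estimated counts in place of TPM, against 0.054, without passing the test in either. A CHR match was in 56.1% of the 57 promoters from 100 bases before to 50 after the start, in place of 61.4%. Of all promoters, 7.37% had a match there, in place of 16.4%. Of those of protein-coding genes tested, 5.37% did, in place of 12.8%. The contrast with all promoters was thus larger in the shorter window. For TTTGAA alone, from 250 bases before to 50 after the start, the 3 shares were 56.1%, 15.2% and 11.5%.

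Vehicle and nutlin samples share 8 replicate numbers, but samples with the same number did not deviate together (mean correlation 0.00254, range -0.0444 to 0.0797), and 0 of the vehicle samples correlated best with their own number. With the replicate block over these 16 samples, all 56 genes were lower again, as were 6760 of all 27697 genes tested. Transcript usage was called in 14 of the 52 genes tested and in 3470 of all 10063. The NUF2 to NDC80 ratio differed by -0.18 and no longer passed 5%.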
